A study of Mus musculus with 9 samples.

Results

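Myelin and mature oligodendrocyte genes were followed over the 9 whole-brain libraries of a study on diabetic neuropathic pain and baclofen. The 9 members, Mbp, Mobp, Mog, Mag, Cnp, Ermn, Mal, Opalin and Cldn11, were found by gene symbol among the 53465 genes of the count table and the FPKM table. Each had 1 row per table, and all 9 were among the 18501 genes that passed the filter on low counts. All mice were male C57BL/6 mice, 7 weeks old at the start. The 3 CON mice were normal mice that received saline, and whether they were given the citrate buffer of the streptozotocin is not stated. The 3 DNP mice had 4 weeks of a 60% high-fat diet and then 7 daily intraperitoneal doses of streptozotocin (50 mg/kg each), which destroys the insulin-producing cells of the pancreas, and received saline. The 3 BAC mice had the same diet and streptozotocin and were given baclofen, which activates the GABA-B receptor, intraperitoneally in 7 daily doses of 8 mg/kg. The diabetic mice had been included only with a fasting glucose of at least 16.7 mmol/L and with mechanical and thermal pain thresholds below those of the controls. The methods name the 3 samples of a group biological replicates. The high-fat diet, streptozotocin, diabetes and the selection on pain thresholds came together in the model, so their parts in a difference from CON cannot be told apart.

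Oligodendrocytes of the central nervous system wrap axons in a compacted spiral of their own membrane, the myelin sheath, which insulates the axon and speeds conduction. The sheath is built from a few very abundant proteins, some of which hold the compacted membrane layers together while others sit on its surface, next to the axon or in channels of cytoplasm that remain open. Their genes are switched on together when a precursor cell matures, under transcription factors such as Sox10 and Myrf. White matter, brainstem and spinal cord hold more myelin than cortex, so the RNA level in a piece of brain also depends on which regions it contains.

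All 9 myelin genes were higher in DNP than in CON, as were 51.4% of all genes tested. The members differed by 1.91-fold (Cnp) to 2.93-fold (Mobp). Of the 9, 0 passed an adjusted p of 0.05 in edgeR (quasi-likelihood test, Benjamini-Hochberg adjustment over all genes tested), as did 0 of all 18501 genes. BAC and DNP did not differ detectably in any member. BAC was above CON for all 9, as for 48.2% of all genes, by 1.63-fold (Opalin) to 2.76-fold (Ermn). Again 0 of the 9 and 0 of all genes passed the adjusted threshold. The levels varied widely within the DNP and BAC groups. The same 4 libraries, DNP 1, DNP 3, BAC 1 and BAC 3, lay above the other 5 for each of the 9 genes, so DNP 2 and BAC 2 stood nearer to the CON mean than the other mice of their own groups did. In a bulk sample, a different number of oligodendrocytes and a different amount of myelin RNA per cell cannot be told apart.

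Before the members are described, 3 libraries must be set apart. The library totals were 13107382 to 16008129 counts, so depth differed little. Mitochondrially encoded genes took 4.34 to 5.36% of the counts in CON and 5.94 to 7.23% in DNP and BAC, without overlap. DNP 1, BAC 1 and BAC 3, although labelled whole brain, held 1147, 2652 and 3487 summed counts of 10 Hox genes, which are expressed in hindbrain and spinal cord, against 0 to 7 in the other 6 libraries. The same 3 libraries were low in forebrain markers, with 848, 421 and 422 summed CPM (counts scaled to library size after TMM normalization) of 13 genes. CON 2 had 1036, and the other 5 libraries had 4046 to 5328. Results are therefore given with all 9 libraries and, as alternatives chosen after seeing the data, without these 3 or without the 4 that were low in forebrain markers. The libraries also varied in the summed CPM of 12 cerebellar markers, which neither choice evens out. These were 258, 6858 and 1141 CPM in CON 1, 2 and 3, 705, 247 and 216 CPM in DNP, and 3456, 202 and 1213 CPM in BAC. Whether the makeup of the tissue accounts for the differences between libraries was not tested.

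Schwann cell markers were at lower summed levels than the members in every library. Of the 9 Schwann cell markers, which mark the myelinating cells of peripheral nerve, Pmp2 was at 0 counts in every library and Prx had 8 to 48. However, 5 of the 9 passed the filter on low counts. The summed level of the 9 markers was 66.2 to 156 CPM in CON, 98.9 to 102 CPM in DNP and 83.2 to 113 CPM in BAC, while that of the 9 members was 1457 to 2073 CPM in CON, 2466 to 6153 CPM in DNP and 2077 to 5977 CPM in BAC.

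The genes lie on 8 chromosomes, with Mal and Ermn on the same one. In GRCm38 coordinates of GENCODE M21, Mobp lies at chr9:120149707-120181484 on the plus strand and Mag at chr7:30899176-30914873 on the minus strand. Cnp spans chr11:100574904-100591729 on the plus strand and Opalin chr19:41061710-41077113 on the minus strand. The library preparation kept no strand, and exons of Cnp share 154 bases with the opposite-strand gene Dnajc7, which had up to 2302 counts per library, against at least 3044 for Cnp. Reads in that stretch cannot be assigned to Cnp with certainty. The other exon overlaps were with Gm38642 (Mobp, at most 17 counts) and Galnt5 (Ermn, at most 26 counts).

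The sequences just before the starts of 4 members are shown because these genes moved together over the 9 libraries, with Mobp the member of the largest fold, Mag and Cnp the members with a match to the Myrf motif, and Opalin the member that followed the others least. RefSeq windows of 250 bases before the start (GRCm38.p6) were at hand for 8 of the 9 members, all but Mbp. Each is printed 5′ to 3′ on the strand of its gene and ends at or before the start of the GENCODE gene. Mag had 3 windows, of which the one farthest upstream is shown. Capitals mark a SOX core (ACAAAG or ACAATG), a Myrf core (CTGGCAC) or an E-box bound by factors such as Olig2 (CAGCTG or CAGATG), on either strand, so CTTTGT is ACAAAG read on the other strand and CATCTG is CAGATG.
Mobp, chr9:120149492-120149706, plus strand: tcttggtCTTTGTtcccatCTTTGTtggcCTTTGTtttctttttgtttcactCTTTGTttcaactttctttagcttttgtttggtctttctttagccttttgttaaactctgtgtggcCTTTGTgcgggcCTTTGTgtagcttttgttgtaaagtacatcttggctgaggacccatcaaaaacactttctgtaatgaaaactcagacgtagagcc
Mag, chr7:30914923-30915172, minus strand: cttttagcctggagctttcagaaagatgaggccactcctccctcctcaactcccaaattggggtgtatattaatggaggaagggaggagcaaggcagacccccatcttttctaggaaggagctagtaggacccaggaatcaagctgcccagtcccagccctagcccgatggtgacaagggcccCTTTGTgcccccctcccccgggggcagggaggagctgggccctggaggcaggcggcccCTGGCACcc
Cnp, chr11:100574689-100574903, plus strand: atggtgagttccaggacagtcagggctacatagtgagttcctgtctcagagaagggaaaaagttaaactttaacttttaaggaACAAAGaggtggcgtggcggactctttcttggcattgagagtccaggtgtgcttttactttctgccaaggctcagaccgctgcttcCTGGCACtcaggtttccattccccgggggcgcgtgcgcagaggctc
Opalin, chr19:41077114-41077363, minus strand: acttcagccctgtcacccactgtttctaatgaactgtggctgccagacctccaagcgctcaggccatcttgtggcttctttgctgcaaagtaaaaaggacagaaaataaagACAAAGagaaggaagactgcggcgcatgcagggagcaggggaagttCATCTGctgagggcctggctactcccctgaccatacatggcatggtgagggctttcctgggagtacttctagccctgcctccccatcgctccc

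A SOX core was found before 5 of the 8 members (Mag, Mobp, Cnp, Opalin and Ermn), and 28.2% of the 26994 genes with a window had one. The 6 copies before Mobp were the most of any window: it was the only 1 of 32817 windows with at least 6, a count looked up after the sequence had been seen. The Myrf core was found before 2 of the 8 members and before 4.8% of all genes. An E-box was found before 1 member (Opalin), a GC box (GGGCGG) before 1 (Cnp, in bases that are not printed) and a TATA box (TATAAA) before 0, with 28.3%, 35.3% and 14.3% of all genes. These letter matches are descriptions, not binding sites.

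The 2 genes of compaction come first. Mbp encodes myelin basic protein, which holds the cytoplasmic faces of the membrane together. Its level was 623, 527 and 361 CPM in CON 1, 2 and 3, 1857, 672 and 1240 CPM in DNP 1, 2 and 3, and 1308, 687 and 1869 CPM in BAC 1, 2 and 3. Every DNP and BAC library was above every CON library, although DNP 2 and BAC 2 exceeded CON 1 only slightly. The log2 fold change of Mbp in DNP versus CON was 1.32 (SE 0.453, 95% interval 0.287 to 2.35, unadjusted p = 0.0181, adjusted p = 0.376).

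Mobp encodes myelin-associated oligodendrocyte basic protein, a small basic protein of compact myelin. It was measured at 675, 543 and 506 CPM in CON, 2330, 886 and 1828 CPM in DNP, and 1498, 664 and 2117 CPM in BAC. The DNP libraries did not overlap with CON, whereas BAC 2 lay within the CON range. Mobp had the largest log2 fold change of the 9 members in DNP versus CON, 1.55 (SE 0.460, 95% interval 0.501 to 2.60, adjusted p = 0.335 in edgeR).

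Mog and Mag are membrane proteins of the immunoglobulin family. Mog sits on the outermost layer of the sheath and Mag on the innermost layer, where it contacts the axon. Mog was at 44.4, 37.6 and 32.1 CPM in CON, 128, 53.9 and 102 CPM in DNP, and 106, 38.3 and 132 CPM in BAC. Mag was at 143, 124 and 97.8 CPM in CON, 399, 150 and 304 CPM in DNP, and 262, 113 and 358 CPM in BAC. For both genes the DNP libraries were all above CON, with DNP 2 close to CON 1, and BAC 2 overlapped with CON. The log2 fold changes in DNP versus CON were 1.32 for Mog (SE 0.457, adjusted p = 0.377 in edgeR) and 1.23 for Mag (SE 0.458, adjusted p = 0.392 in edgeR).

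Cnp, an enzyme that keeps channels of cytoplasm open within the sheath, and Ermn, a cytoskeletal protein of mature oligodendrocytes, mark the cytoplasmic parts. Cnp was at 251, 294 and 214 CPM in CON, 650, 290 and 513 CPM in DNP, and 493, 255 and 654 CPM in BAC. Its groups overlapped in both comparisons with CON, since CON 2 was above DNP 2 and BAC 2. The log2 fold change of Cnp in DNP versus CON was the smallest of the 9, 0.94 (SE 0.383, 95% interval 0.063 to 1.81, adjusted p = 0.422 in edgeR). Ermn was at 47.6, 49.3 and 39.8 CPM in CON, 177, 56.9 and 117 CPM in DNP, and 147, 39.0 and 192 CPM in BAC. BAC 2 was below all 3 CON libraries for Ermn, while the other BAC libraries were at 3.22 and 4.21 times the CON mean, and the coefficient of variation within BAC, 62.4%, was the largest of any member in any group. The log2 fold change of Ermn in DNP versus CON was 1.36 (SE 0.565, 95% interval 0.069 to 2.64, adjusted p = 0.427 in edgeR).

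Mal, a proteolipid of membrane traffic, Opalin, a glycoprotein of the oligodendrocyte membrane, and Cldn11, the claudin of the tight junctions between myelin layers, are the remaining members. Mal was at 156, 94.7 and 113 CPM in CON, 332, 200 and 339 CPM in DNP, and 239, 157 and 345 CPM in BAC. It was higher in every diabetic library than in every CON library, though BAC 2 exceeded CON 1 by less than 1 CPM. The log2 fold change of Mal in DNP versus CON was 1.26 (SE 0.337, 95% interval 0.495 to 2.03, adjusted p = 0.313 in edgeR), and it was the member that DESeq2 called in this comparison (adjusted p = 0.0383, with 0.0383 to 0.637 over its 20 alternatives).

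Cldn11 was at 111, 84.5 and 81.0 CPM in CON, 253, 137 and 252 CPM in DNP, and 189, 106 and 279 CPM in BAC. Only BAC 2 overlapped with CON. Its log2 fold change in DNP versus CON was 1.22 (SE 0.368, adjusted p = 0.348 in edgeR). Opalin, the least abundant member, was at 21.3, 11.1 and 12.7 CPM in CON, 26.3, 19.5 and 46.0 CPM in DNP, and 24.2, 18.6 and 30.5 CPM in BAC. Here DNP 3 was the highest library, in contrast to Mbp, Mog, Cnp, Ermn, Mal and Cldn11, which were highest in BAC 3, and Mobp and Mag, which were highest in DNP 1. CON 1 lay within the DNP and BAC ranges, and the log2 fold change of Opalin in DNP versus CON was 1.03 (SE 0.372, adjusted p = 0.383 in edgeR).

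**Figure D1:**
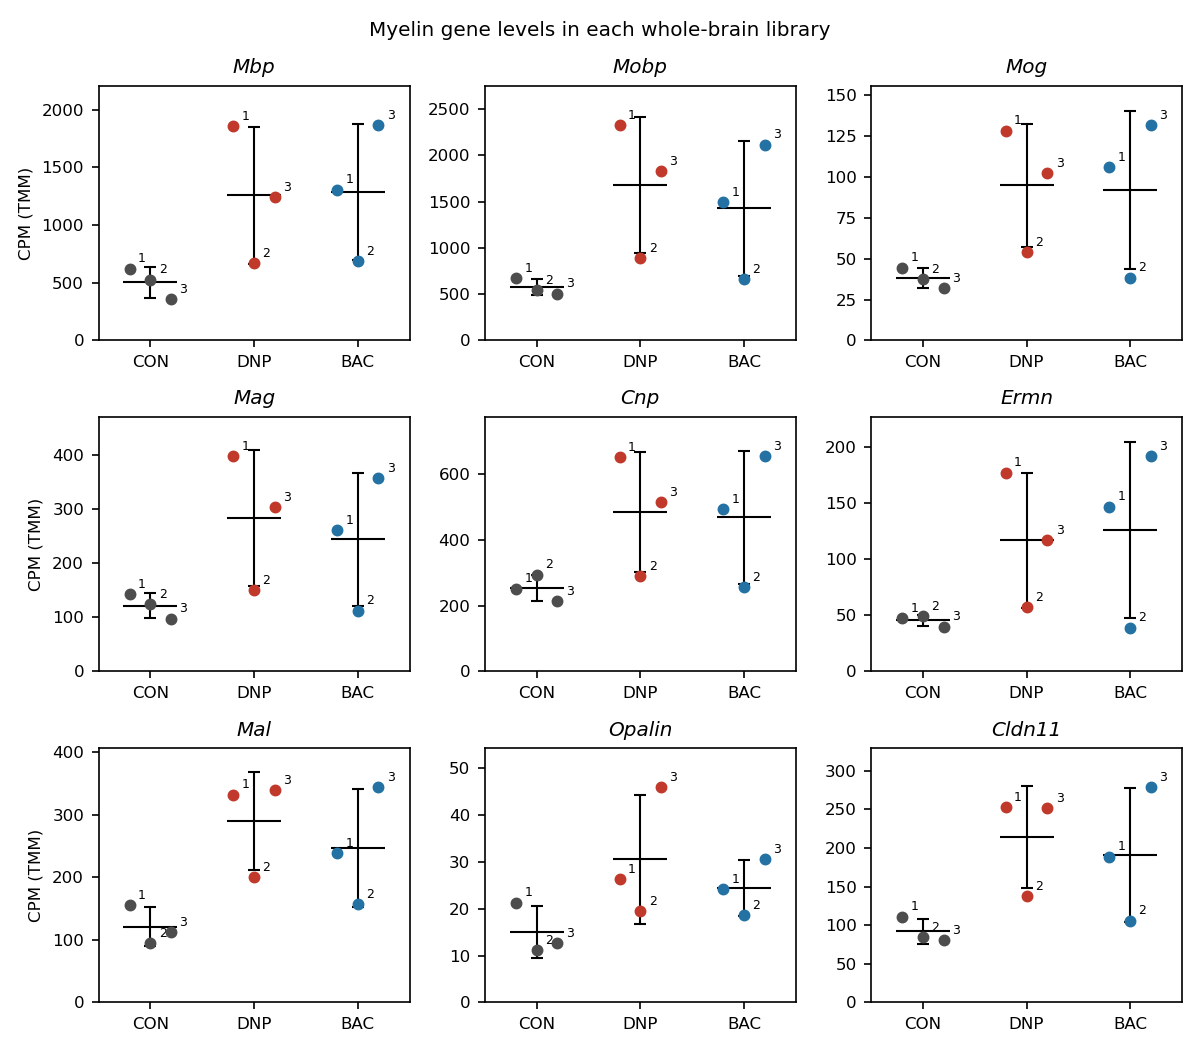
Level of each of the 9 myelin genes in CPM after TMM scaling (vertical axis, linear from 0) in the 3 CON, 3 DNP and 3 BAC libraries, with the replicate number beside each point, the mean as a horizontal line and the SD as a bar. In each panel DNP 1, DNP 3, BAC 1 and BAC 3 lie above the other 5 libraries.

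Summed over the 9 genes, myelin RNA took 0.195%, 0.179% and 0.141% of all counts in CON, 0.615%, 0.247% and 0.478% in DNP, and 0.448%, 0.203% and 0.614% in BAC. The median of the members relative to their CON means was 3.28 in DNP 1 and 2.68 in DNP 3, but 1.34 in DNP 2. In BAC it was 2.15, 1.15 and 3.03. DNP 3 was not among the libraries with Hox counts, having 2 of these counts and 4422 CPM of forebrain markers, and its members stood at 2.03 to 3.18 times the CON mean. Its 216 CPM of cerebellar markers lay in a range of 202 (BAC 2) to 6858 CPM (CON 2). This was near the level in DNP 2 (247 CPM), BAC 2 and CON 1 (258 CPM), where the members were lower. Its 1424 CPM of choroid plexus and ependyma markers were the most of any library, with BAC 1 close at 1283 CPM. The part of the tissue makeup in the DNP 3 values was not tested.

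In DNP versus CON, all 9 members were higher with an unadjusted p under 0.05 in edgeR, as were 5.71% of all genes tested. By the adjusted p, 0 of the 9 members passed, as did 0% of all genes (0 of 18501). For 7 of the 9 members, all but Cnp and Opalin, every DNP library was above every CON library, which held for 9.59% of all genes. In DESeq2, 1 of the 9 members (Mal) was called higher, against 0.795% of all genes. The median log2 fold change of the members was 1.26, and that of all genes was 0.013.

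The number of members with an unadjusted p under 0.05 depended on single libraries. It was 3 of 9 without CON 3, 4 without DNP 1, 5 without CON 2, 5 without DNP 3, 7 without CON 1 and 9 without DNP 2, whereas the median log2 fold change stayed between 1.03 and 1.52. Among all genes tested, in either direction, 1500 of 19069 had such a p without CON 3 and 1783 of 19007 without DNP 1. These numbers were 1751 of 19008 without CON 2, 1426 of 18989 without DNP 3, 2129 of 19043 without CON 1 and 1829 of 18998 without DNP 2. Without DNP 1, BAC 1 and BAC 3, the libraries with Hox counts, the median was 1.02. DNP 2 was the lowest DNP library for all 9 genes, so the 7 members that did not overlap remained so. The libraries left in this comparison still differed in cerebellar markers, at 247 and 216 CPM in DNP 2 and DNP 3 against 258 to 6858 CPM in CON. Without the 4 libraries low in forebrain markers, which leaves DNP 2 and DNP 3 against CON 1 and CON 3, the median was 0.986. With the cerebellar and brainstem marker scores of each library as covariates, the median was 0.621 and 0 of the 9 members had an unadjusted p under 0.05. In that fit, 2662 of the 18501 genes tested had such a p in either direction.

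**Figure D2:**
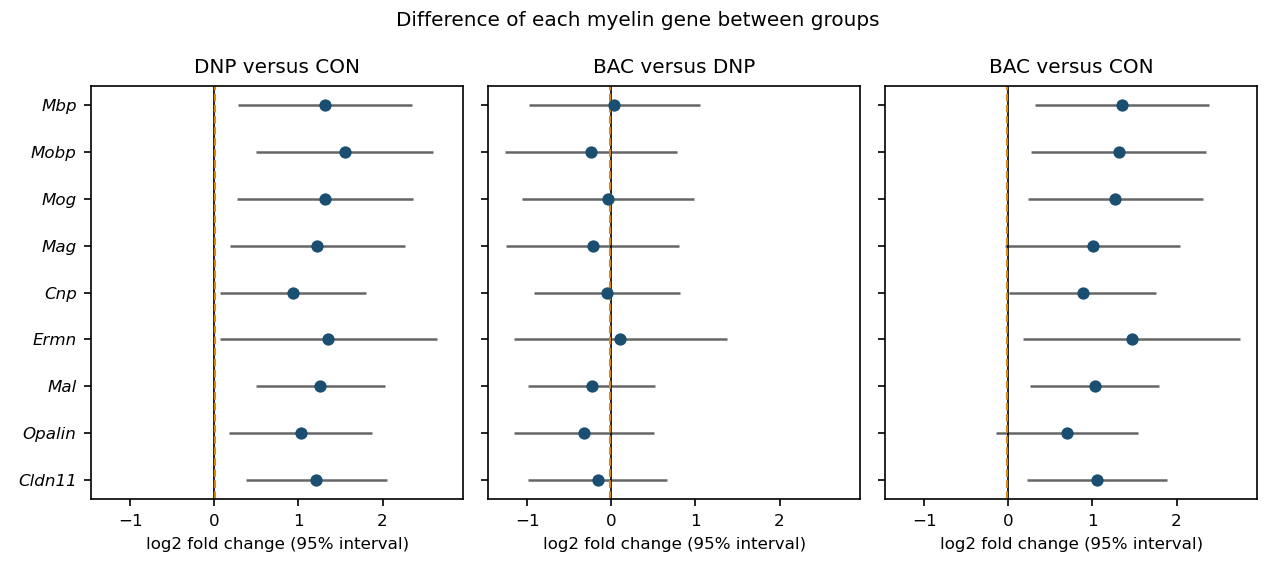
Log2 fold change of each myelin gene (points) with its 95% interval (lines) from edgeR in the 3 comparisons, with DNP versus CON at the left, on 1 shared horizontal axis; the dashed line is the median of all genes tested. The members lie between 0.94 and 1.55 in DNP versus CON and between -0.32 and 0.11 in BAC versus DNP.

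Baclofen was compared with saline among the diabetic mice. In BAC versus DNP, 2 of the 9 members were higher (Mbp and Ermn) and 7 lower, with log2 fold changes from -0.32 (Opalin) to 0.11 (Ermn) and a median of -0.162, against -0.013 for all genes. Of the 9 members, 0 had an adjusted p under 0.05, as did 0% of all genes, and 0 had an unadjusted p under 0.05, which 1.37% of all genes had as higher and 1% as lower. The groups overlapped for all 9 members; 3.38% of all genes had every BAC library above every DNP library and 3.41% every BAC library below. For Mbp the log2 fold change was 0.035 with a 95% interval of -0.979 to 1.05, and for Ermn 0.108 with an interval of -1.15 to 1.37. These intervals reach to about 1 or beyond on the log2 scale in either direction, so the data do not show that the groups were alike.

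BAC and DNP both held libraries at the high and at the low end, with BAC 2 the lowest and BAC 3 the highest BAC library for all 9 genes. The median log2 fold change in BAC versus DNP changed sign with single libraries, from -0.510 without BAC 3 to 0.128 without BAC 2. Without the 3 libraries with Hox counts it was -0.875, with BAC 2 as the lone BAC library.

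BAC versus CON shares its CON libraries with DNP versus CON, so the 2 comparisons are not independent. All 9 members were higher in BAC, with a median log2 fold change of 1.05. The largest were Ermn at 1.47 (SE 0.566) and Mbp at 1.35 (SE 0.453), and the smallest was Opalin at 0.70 (SE 0.370). For 7 of the 9 members the unadjusted p in edgeR was under 0.05 (all but Mag and Opalin), as it was in the direction of higher in BAC for 4.46% of all genes. The adjusted p passed for 0 of the 9 members and for 0% of all genes. For Mbp and Mal every BAC library was above every CON library, as for 7.21% of all genes, and DESeq2 called 0 of the 9 members, against 0.335% of all genes as higher in BAC.

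The values in BAC versus CON were smaller when BAC 1 and BAC 3 were left out together. Without the libraries with Hox counts, where BAC 2 is the lone BAC library and is assumed to vary like the others, the median of the members was 0.191. With the region scores as covariates it was 0.156. In the latter fit 0 members had an unadjusted p under 0.05, as had 2346 of the 18501 genes tested in either direction. The count of members with such a p was 0 of 9 without BAC 3, 1 without CON 3, 2 without CON 2, 4 without BAC 1, 6 without CON 1 and 8 without BAC 2, and the median stayed between 0.706 (without BAC 3) and 1.35 (without BAC 2). Among all genes tested, in either direction, the number was 604 of 18984 without BAC 3 and 892 of 19069 without CON 3. It was 1757 of 19008 without CON 2, 1257 of 18936 without BAC 1, 1149 of 19043 without CON 1 and 2693 of 19013 without BAC 2.

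**Figure D3:**
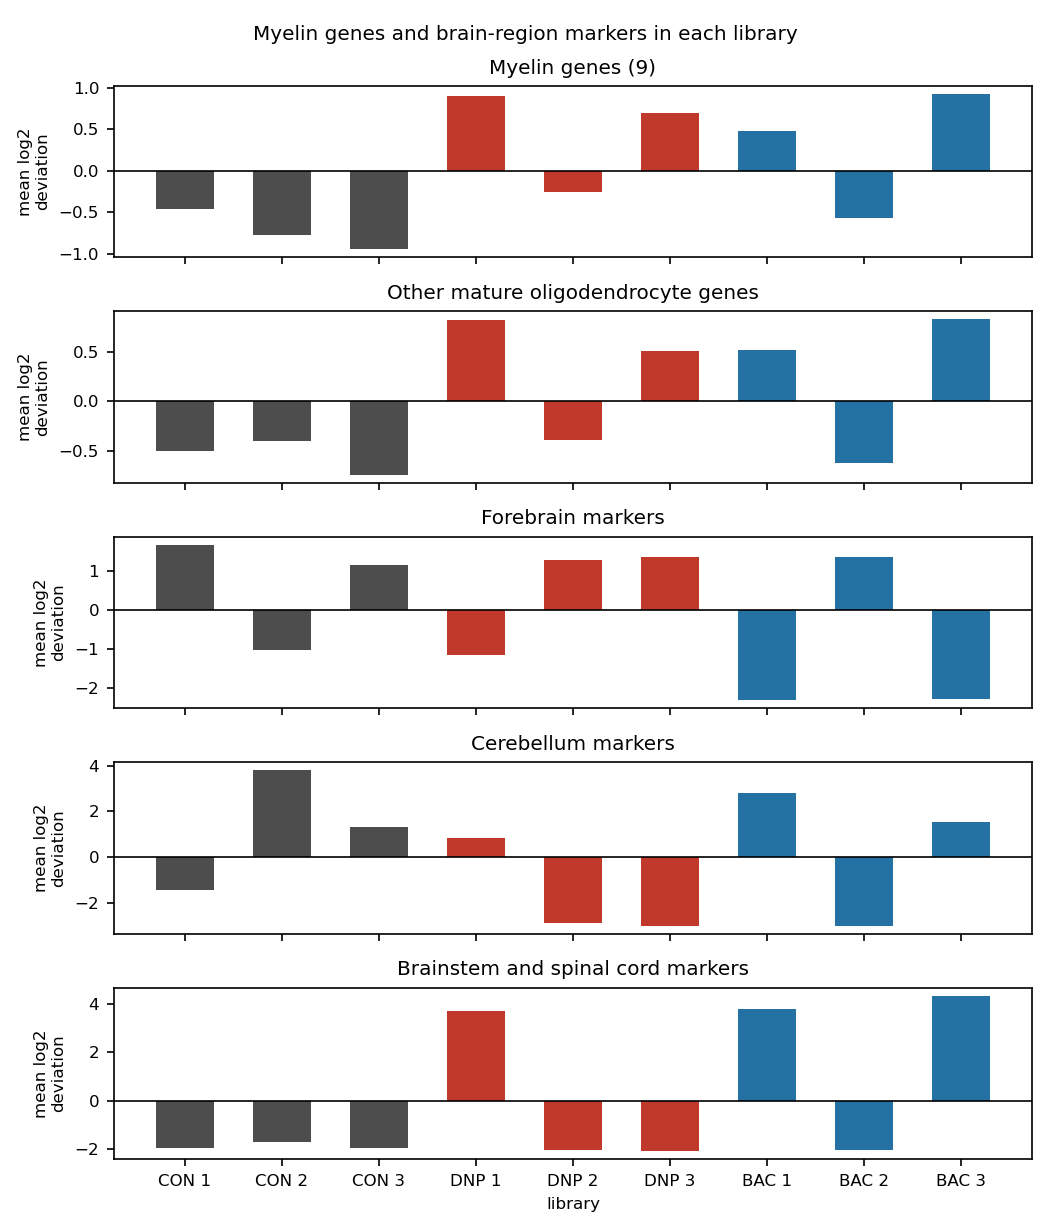
Mean log2 deviation from the average of the 9 libraries (vertical axes, scales differ) of the 9 myelin genes, of 41 other genes of mature oligodendrocytes and of the marker genes of forebrain, cerebellum, and brainstem and spinal cord, 1 bar per library. The myelin bars of DNP 1, BAC 1 and BAC 3 stand beside high brainstem bars at 3.71, 3.79 and 4.36, while DNP 3, with a brainstem bar at -2.11, has a myelin bar at 0.698.

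Per transcript length, the order of the levels is read from FPKM. In CON, Mobp was the highest at 69.2 ± 9.01 FPKM (SD, n = 3), followed by Cldn11 at 47.9 ± 7.17, Cnp at 44.6 ± 8.27, Mal at 37.4 ± 8.47 and Mbp at 30.4 ± 7.70. Lower FPKM were found for Mog at 20.5 ± 3.00, Mag at 18.2 ± 3.20, Ermn at 12.2 ± 1.54 and Opalin at 7.91 ± 2.61. Neighbours in this order from Cldn11 to Mbp differed by less than their SD, as did Mog and Mag, whereas Mobp stood apart from Cldn11. The place of several members depends on the length behind their FPKM. The deposited FPKM of Mbp corresponds to 16100 bases, while its longest annotated transcript has 4797 bases and its merged exons 8469, so its FPKM is lower than a value for its mature transcript would be. The length behind the FPKM also exceeds the merged exons for Mag (6513 against 4072 bases), Cnp (5539 against 3639), Mobp (8067 against 6849), Mal (3138 against 2778) and Mog (1806 against 1704), and is below them for Opalin (1838 against 2946). For Cldn11 and Ermn the corresponding length equals that of their only annotated transcript (1870 and 3635 bases).

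Relative to Cnp in the same library, the highest and the lowest library differed by 1.45-fold (Mag) to 2.37-fold (Opalin). Cnp had the smallest log2 fold change of the 9 in DNP versus CON, so a ratio to it keeps part of the difference between the groups. These ratios are given as a description and were not tested. Between DNP and CON, the ratios of Mobp, Mog and Ermn did not overlap, while those of Mbp, Mag, Mal, Opalin and Cldn11 did. For Mobp they were 2.101 (DNP 2) to 2.461 in DNP and 1.267 to 1.844 in CON. For Mog they were 0.57 (DNP 2) to 0.61 in DNP and 0.392 to 0.542 in CON. BAC 2 lay within the CON range for Mobp (1.788) and Mog (0.461). The lowest DNP ratio of Ermn was 0.299, in DNP 2. The FPKM of Ermn was 0.288, 0.256 and 0.284 times that of Cnp in CON and 0.233 in BAC 2, and 0.414, 0.454 and 0.446 in DNP 1, BAC 1 and BAC 3. The ratio of Ermn was thus higher in the libraries with Hox counts than in the other 6, where it was at most 0.346. The ratio of Opalin took the opposite order within the diabetic groups: it was 0.122, 0.148 and 0.141 in DNP 1, BAC 1 and BAC 3, and 0.203, 0.270 and 0.220 in DNP 2, DNP 3 and BAC 2. In CON 2, the CON library with the fewest forebrain and the most cerebellar markers, Cnp itself was at 1.16 times the CON mean, and the ratios to Cnp of 6 of the 8 other members (Mal, Opalin, Cldn11, Mog, Mag and Mobp) were the lowest of all 9 libraries.

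Some reads of the denominator, Cnp, cannot be told from Dnajc7, as described above. The length behind each FPKM is the same in every library and drops out of comparisons of a ratio between libraries.

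**Figure D4:**
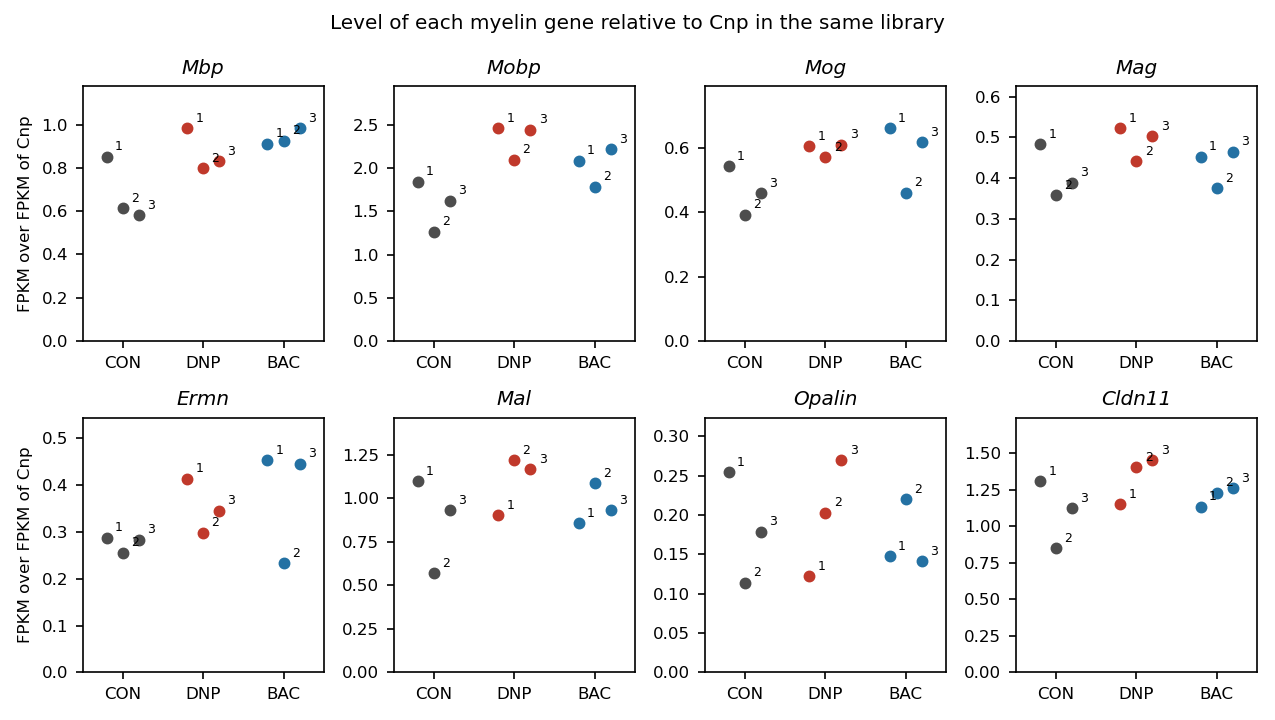
FPKM of each of the other 8 myelin genes divided by the FPKM of Cnp in the same library (vertical axes from 0), with the replicate number beside each point. Ermn is highest in DNP 1, BAC 1 and BAC 3 (0.414 to 0.454), and Opalin is low in the same 3 libraries (0.122 to 0.148).

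The members moved together over the libraries. Across the 9 libraries, which differ in group and in tissue markers, the 36 pairs of members had Pearson correlations of log2 CPM from 0.718 (Opalin with Ermn) to 0.991 (Mobp with Cldn11), with a median of 0.965. Without Opalin the lowest was 0.875. After the group means had been removed, the 36 correlations ranged from 0.518 to 0.994, with a median of 0.944. Opalin was closest to Mal (r = 0.924).

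Over the same 9 libraries, 54 of the 18492 other genes tested correlated with the mean of the members at r over 0.95. Among the 10 with the highest r were Prr18 (0.992), Bcas1 (0.992), Rhog (0.990), Il33 (0.989), Gatm (0.988), Rnf7 (0.986), Litaf (0.986), Tmem63a (0.986) and Pde8a (0.986). Without DNP 3, 5 of the 10 genes were still among the 10 highest, and without any other single library 7 to 10 were. Bcas1 marks oligodendrocytes that are forming myelin. With Mbp alone, the highest was Nkx6-2 (r = 0.990), a homeobox factor of oligodendrocytes, and the 10 included Plekhb1, Prr18, Bcas1, Gpr62, Carns1, Snx1, Csrp1 and Gstm7. Prr18 and Bcas1 were in both sets of 10.

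Other genes of mature oligodendrocytes were mostly higher in DNP too. In DNP versus CON, 40 of the 41 listed genes were higher, 18 had an unadjusted p under 0.05, 0 passed the adjusted threshold and 20 did not overlap, with a median log2 fold change of 0.914. Of all genes, 5.71% were higher with such a p and 9.59% had every DNP library above every CON library. The 2 listed genes with the smallest p were Ninj2 at 1.13 (SE 0.299) and Cd9, a tetraspanin, at 0.63 (SE 0.168), both with an adjusted p of 0.312 in edgeR. In BAC versus DNP 16 of the 41 were higher and 25 lower, 0 with an unadjusted p under 0.05 (median -0.036). In BAC versus CON all 41 were higher, 17 with an unadjusted p under 0.05 (median 0.879), against 4.46% of all genes as higher with such a p. Of the 41, 31 correlated with the mean of the members at r over 0.9. Tspan2, another tetraspanin of oligodendrocytes, had the lowest r (0.255), with 190 CPM in DNP 3 and 19.2 to 92.1 CPM in the other 8 libraries.

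Among 14 transcription factors of the lineage, 10 were higher in DNP than in CON, 8 of them with an unadjusted p under 0.05, against 5.71% of all genes. In the other direction, 1 factor was lower with an unadjusted p under 0.05, against 5.46% of all genes. The median log2 fold change was 0.578, and in BAC versus CON it was 0.734. Olig1, a helix-loop-helix factor that drives maturation, was at 121, 74.2 and 101 CPM in CON, 287, 157 and 207 CPM in DNP, and 162, 149 and 263 CPM in BAC. It had the smallest p of the list with a log2 fold change of 1.14 (SE 0.308, adjusted p = 0.318 in edgeR), and DESeq2 called it (adjusted p = 0.0498). Unlike most members, Olig1 was above every CON library in BAC 2 too. Zfp488 followed at 1.11 (SE 0.326, adjusted p = 0.332 in edgeR) on low levels of 1.21 to 5.29 CPM.

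The factors whose motifs were sought above were also higher in DNP. Sox10, which activates the myelin genes, had a log2 fold change of 0.76 (SE 0.250), Olig2 of 1.00 (SE 0.299) and Myrf, the factor of myelin gene transcription in mature cells, of 0.98 (SE 0.397). For each of the 3, every DNP library was above every CON library, as for 9.59% of all genes. The adjusted p in edgeR did not pass for them, as for all other genes tested. In BAC versus DNP their log2 fold changes were -0.060, -0.026 and -0.135. Nfib, a factor with wide expression in glia and neurons, had the smallest p of the 4 listed factors that were lower in DNP (-0.95, SE 0.296, adjusted p = 0.354 in edgeR).

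Genes of the precursor stage had a median near 0. Of 18 genes of oligodendrocyte precursors and newly formed oligodendrocytes, 9 were higher and 9 lower in DNP than in CON, 2 of them with an unadjusted p under 0.05, and the median log2 fold change was -0.003. Both were higher (as were 5.71% of all genes with such a p), Lhfpl3 at 0.87 (SE 0.279, adjusted p = 0.360 in edgeR) and Bcas1 at 1.51 (SE 0.500, adjusted p = 0.363 in edgeR). Pdgfra, the growth factor receptor that defines precursors, was at 63.1, 27.9 and 64.3 CPM in CON and 56.3, 52.0 and 42.3 CPM in DNP, with a log2 fold change of -0.046 (SE 0.323). The difference between Pdgfra and the members was not tested.

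Myelin is rich in sphingolipids and cholesterol. Of 14 genes of myelin lipid synthesis, 12 were higher in DNP and 3 had an unadjusted p under 0.05, with a median of 0.478. Of these 14, 4 (Aspa, Fa2h, Gal3st1 and Ugt8a) are also among the 41 genes above. Elovl1, an elongase of very long fatty acids, had a log2 fold change of 0.57 (SE 0.158, adjusted p = 0.325 in edgeR), and Cers2, the ceramide synthase for such chains, of 0.82 (SE 0.261, adjusted p = 0.358 in edgeR). Of 20 genes of cholesterol synthesis, 12 were higher and 8 lower with a median of 0.035, and the 2 with an unadjusted p under 0.05 were Pmvk (0.39, SE 0.145) and Fdps (0.41, SE 0.174). Of all genes tested, 5.71% were higher and 5.46% lower in DNP with such a p, so 2 of 20 is not set apart from that share.

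Genes of the axon, the node of Ranvier and the paranode, the parts that the sheath contacts, were more often lower than higher in DNP. Of 23 genes, 8 were higher and 15 lower in DNP, 4 of the latter with an unadjusted p under 0.05 (5.46% of all genes were lower in this way), and the median was -0.272. The DNP libraries differed, with a mean log2 deviation of the list of 0.318 in DNP 1, the highest of all 9 libraries, and of -0.354 and -0.170 in DNP 2 and DNP 3. Scn8a, the sodium channel of mature nodes, was at 532, 439 and 417 CPM in CON and 347, 301 and 317 CPM in DNP, without overlap (log2 fold change -0.53, SE 0.152, adjusted p = 0.328 in edgeR and 0.0406 in DESeq2). Cntnap1, the paranodal partner of contactin, was at 368, 478 and 350 CPM in CON and 306, 219 and 230 CPM in DNP (-0.66, SE 0.199, adjusted p = 0.339 in edgeR).

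Markers of other cells were compared as a background for the members. In DNP versus CON the median log2 fold change was -0.076 for 12 neuronal genes, 0 for 12 astrocyte genes, 0.450 for 12 microglial genes and -0.030 for 12 genes of endothelium and pericytes. Unadjusted p values under 0.05 were found for 0 neuronal genes, 1 astrocyte gene (Slc1a3, a glutamate transporter, at -0.80), 2 microglial genes (C1qb at 0.87 and Ctss at 0.68) and 2 genes of vessels (Ly6c1 at 0.88 and Kdr at -0.80). Such a p was found for 5.71% of all genes as higher in DNP and for 5.46% as lower. Of the microglial genes, 11 of 12 were higher in DNP and 6 did not overlap (9.59% of all genes lay above CON in this way), with a summed level of 212 to 413 CPM in CON, 431 to 493 CPM in DNP and 348 to 545 CPM in BAC. Summed neuronal markers were lowest in BAC 1, BAC 3, CON 2 and DNP 1, at 5530 to 6743 CPM against 8914 to 10720 CPM in the other 5 libraries, and these are the 4 libraries that were low in forebrain markers (Camk2a is in both lists). In BAC versus DNP all 12 astrocyte genes were higher (median 0.350, 0 with an unadjusted p under 0.05) and all 12 vessel genes lower (median -0.382, 4 with an unadjusted p under 0.05, against 1% of all genes as lower). The regional lists had medians in DNP versus CON of -0.266 (13 forebrain genes), -3.03 (12 cerebellar genes) and 6.18 (16 brainstem and spinal cord genes), the 10 genes of choroid plexus and ependyma 0.099, and the 5 tested Schwann cell genes -0.232. The part of these cells and regions in the myelin values was not tested.

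**Figure D5:**
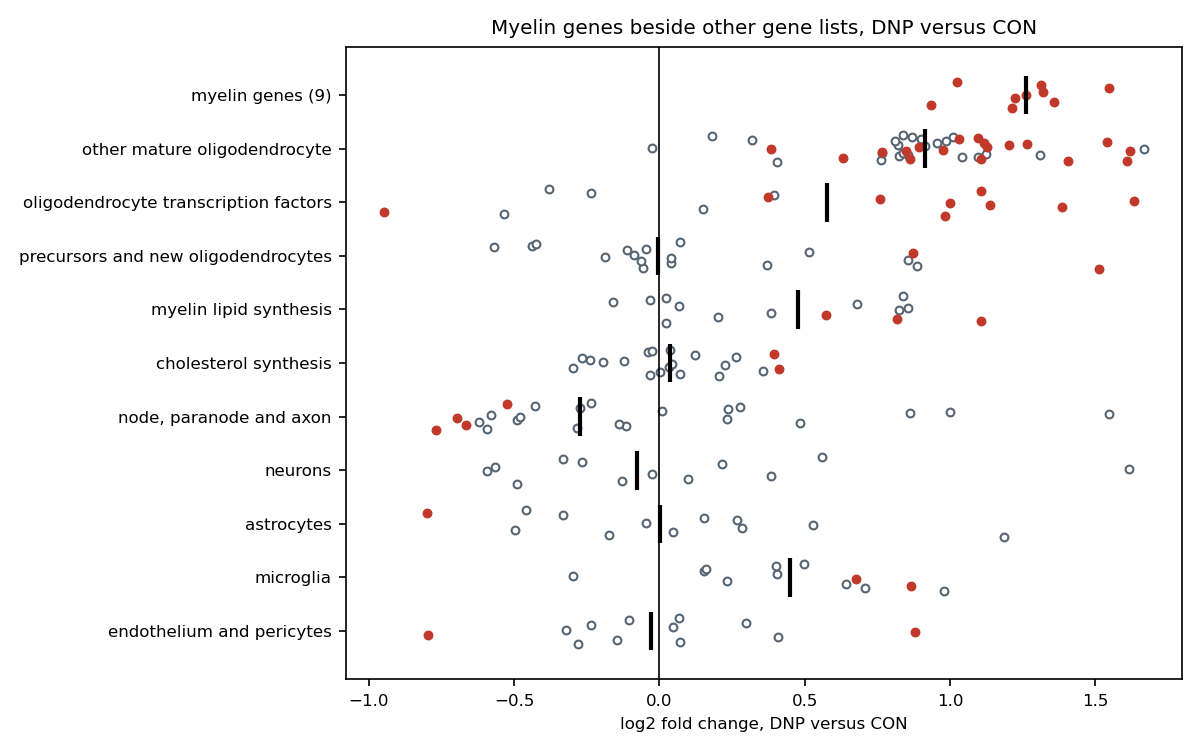
Log2 fold change in DNP versus CON (horizontal axis) of every tested gene of the 9 members and of 10 other lists, 1 point per gene; filled points have an unadjusted p under 0.05 in edgeR and vertical bars are the list medians. The medians are 1.26 for the members, 0.914 for other mature oligodendrocyte genes and -0.003 for precursors and new oligodendrocytes.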

How the data were processed

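Per the labels and methods, whole-brain poly(A) RNA was sequenced in paired-end libraries that keep no strand. The submitters' processing notes name FastQC 0.11.9, fastp, Bowtie2 2.3.4.1, HISAT2 2.1.0, StringTie 1.3.3b and GRCm38. The authors deposited raw counts per gene and FPKM. Each deposited FPKM equals the count divided by a gene length and the library total, with lengths agreeing between libraries within a ratio of 1.0000438 over 14125 genes, so it carries no TMM factor. How reads matching several genes were counted is not given in the sources used here.

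Counts were analysed in R 4.3.3 with edgeR 4.0.16 (filterByExpr with a minimum count of 10, TMM, quasi-likelihood test, 9 libraries in 1 model with group as factor, Benjamini-Hochberg adjustment over 18501 genes, threshold 0.05). The study used DESeq2, which served here as an alternative (1.42.0), as did limma 3.58.1 on log2(FPKM + 1) and log2(FPKM + 0.1), other scalings and filters, only the 2 groups compared, a replicate block, region scores as covariates and leaving out libraries. Library totals of 13107382 to 16008129 counts limit counting error, and the biological coefficient of variation was 36.48%. The pipeline was run on simulated data in which libraries did not differ in tissue makeup, so that run does not cover such differences. The 9 members and the gene lists were chosen with earlier results of these data known. From each other list, the 2 tested genes with the smallest p in DNP versus CON and genes named for their role were taken, and the 10 genes most like the members or Mbp. Tspan2, Il33 and other genes beyond this rule were named after their values were seen. CPM are after TMM scaling, and correlations used log2 CPM with a prior count of 2. Coordinates came from GENCODE M21 (GRCm38) and sequences from RefSeq (GRCm38.p6). Behavioural, qPCR and human blood data were not analysed here. Some genes that the rule on named genes covers are not reported here.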

Additional observations from a re-analysis of the deposited data

How the results depend on the processing

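In DNP versus CON the direction of the 9 members held in all 180 values from 20 alternatives, and the adjusted p of 0.05 was passed in 1 of them (Mal in DESeq2). Of 180 values each, 25 changed sign for BAC versus DNP, and for BAC versus CON 7 did. The number of genes past the adjusted threshold, 0 in each comparison in edgeR, in DESeq2 was 341 for DNP versus CON, 98 for BAC versus CON and 7 for BAC versus DNP, where edgeR had 2067, 1436 and 438 genes at an unadjusted p under 0.05. Leaving out 1 library gave 0 to 1 gene in both comparisons with CON, namely B3galt1 without CON 2 and mt-Ts2 without CON 3, both named after their values were seen. With each library's cerebellar and brainstem marker scores as covariates, the median log2 fold change of the members was 0.621 in DNP versus CON and 0.156 in BAC versus CON. Without the 3 libraries with Hox counts it was -0.875 for BAC versus DNP and 0.191 for the comparison of BAC with CON, and without the 4 libraries low in forebrain markers -0.863 and 0.145; in both, BAC 2 is the lone BAC library.

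Each of the 9 members changed sign in at least 1 alternative for BAC versus DNP. Besides the fits without 1 library, these were Ermn (-7.25e-05 and -0.00856 in limma with a pseudocount of 1 and 0.1, -0.669 with the covariates, -1.15 without the libraries with Hox counts, -1.14 without those low in forebrain markers) and Mbp (-0.366, -0.475 and -0.463 in the last 3). In BAC versus CON they were Mag (-0.095, -0.121 and -0.0819 in the same order), Ermn (-0.234 and -0.151 without the 3 or 4 libraries), Mog (-0.000168) and Cnp (-0.000299), the last pair without the libraries with Hox counts. With 1 library left out, where all 9 changed sign, BAC versus DNP ranged from -0.328 to 0.431 for Mbp, -0.386 to 0.327 for Mog, -0.595 to 0.124 for Mag, -0.631 to 0.104 for Mobp, -0.368 to 0.244 for Cnp, -0.549 to 0.00513 for Mal, -0.559 to 0.0948 for Opalin, -0.323 to 0.538 for Ermn and -0.532 to 0.128 for Cldn11. The cause of these changes was not tested.

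The labels give replicate numbers but name no pairing of the samples. Deviations of same-numbered libraries correlated from -0.579 to 0.560, and those of differently numbered libraries from -0.701 to 0.614. With ranges this alike, the correlations cannot decide whether the numbers pair the samples. With the replicate block, 0 genes passed in each comparison, and the medians were 1.14, -0.191 and 0.983. Members without overlap in BAC versus CON numbered 3 by FPKM or by CPM on library totals, against 2 by CPM after TMM.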
